A study of Mus musculus with 2 samples.

Results

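The 14-3-3 family was read in RNA of newborn mouse midbrain through the 7 mouse genes Ywhab, Ywhae, Ywhag, Ywhah, Ywhaq, Ywhaz and Sfn, which encode the beta, epsilon, gamma, eta, theta, zeta and sigma proteins. The members were chosen by gene symbol, and all 7 were found among 43346 mouse gene rows, with 28 transcripts between them. They were measured in 2 amplified RNA-seq libraries from mice of strain B6NCrl, for which the labels name no transgene and no treatment. The input to each was 13 pg of RNA (in the labels' terms, 1 cell-equivalent) out of a single midbrain on postnatal day 0. Pup 1 gave one library and pup 3 the other. Both belong to 1 group, so no condition was compared. Although the titles speak of single cells, the material was tissue RNA. Sex was not collected, and 1 donor record is named for both pups. Since each pup has 1 library, differences between pups have no replicate check.

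14-3-3 proteins are small acidic adaptors that bind other proteins at phosphorylated serine or threonine. They act as dimers, and each partner of a dimer holds 1 phosphopeptide in a groove whose residues are almost the same throughout the family. Their clients include class IIa histone deacetylases, forkhead factors and the tryptophan and tyrosine hydroxylases, whose activation gave the Ywha genes their name. In brain they are among the most abundant soluble proteins, whereas the sigma protein is known from epithelia.

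The family's common ancestry can be read in the bases that encode the first conserved signature of the phosphopeptide groove. These stretches are shown because they tell how far the paralogues differ where the proteins differ least. They come from GENCODE M21 transcripts on GRCm38, coding strand, and capitals mark a base other than the most common one of the 7 genes (in a tie, the first in alphabetical order).
Ywhae (chr11:75751940-75751969, plus strand, exon 2): cgaaacctTTtAtctgtTgcAtaTaaAaaT
Ywhaq (chr12:21416942-21416971, minus strand, exon 2): cgCaacctGctGtcGgtggcctacaaAaac
Ywhaz (chr15:36790828-36790857, minus strand, exon 3): AgaaacctTctctctgtTgcTtaTaaAaac
Ywhag (chr5:135911586-135911615, minus strand, exon 2): cgGaacctcctGtcGgtggcctacaagaac
Ywhab (chr2:164011731-164011760, plus strand, exon 2): AgGaaTctActctctgtTgcctacaagaac
Ywhah (chr5:33026578-33026607, plus strand, exon 2): cgaaaTctcctctctgtggcctacaagaaT
Sfn (chr4:133601620-133601649, minus strand, exon 1): cgaaacctGctTtcCgtAgcTtacaagaac
All 7 genes had the same base at 18 of these 30 positions. Ywhae differed from the most common base at 8 positions and Ywhah at 2.

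The second signature, near the end of the protein, is shown for the closest pair, Ywhag and Ywhah, and for Ywhae, the member least like the others. Capitals have the same meaning, counted over the 7 genes.
Ywhag (chr5:135911034-135911093, minus strand, exon 2): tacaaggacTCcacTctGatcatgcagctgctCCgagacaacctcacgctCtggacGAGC
Ywhah (chr5:33027100-33027159, plus strand, exon 2): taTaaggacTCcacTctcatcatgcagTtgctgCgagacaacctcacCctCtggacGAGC
Ywhae (chr11:75759353-75759412, plus strand, exon 5): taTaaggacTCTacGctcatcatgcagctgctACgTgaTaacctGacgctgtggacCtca
Here 36 of 60 positions were the same in all 7 genes. Ywhag and Ywhah share the rare last bases of the stretch, which Ywhae lacks.

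Over whole coding sequences, which run from 738 to 768 bases, identity between members ranged from 65.2% for Ywhae and Ywhaz to 78.9% for Ywhag and Ywhah, with a median of 69.5% over 21 pairs. Next in likeness were Ywhaz and Ywhab (75.1%), Ywhaq and Ywhab (74.5%) and Ywhaq and Ywhaz (74.1%). Ywhae shared on average 66.3% of its bases with the other members and Sfn 68.3%. The 2 closest genes are also alike in structure, since Ywhag and Ywhah have 2 exons each, while Ywhab, Ywhae and Ywhaq have 6, Ywhaz 7 and Sfn 1.

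**Figure D1:**
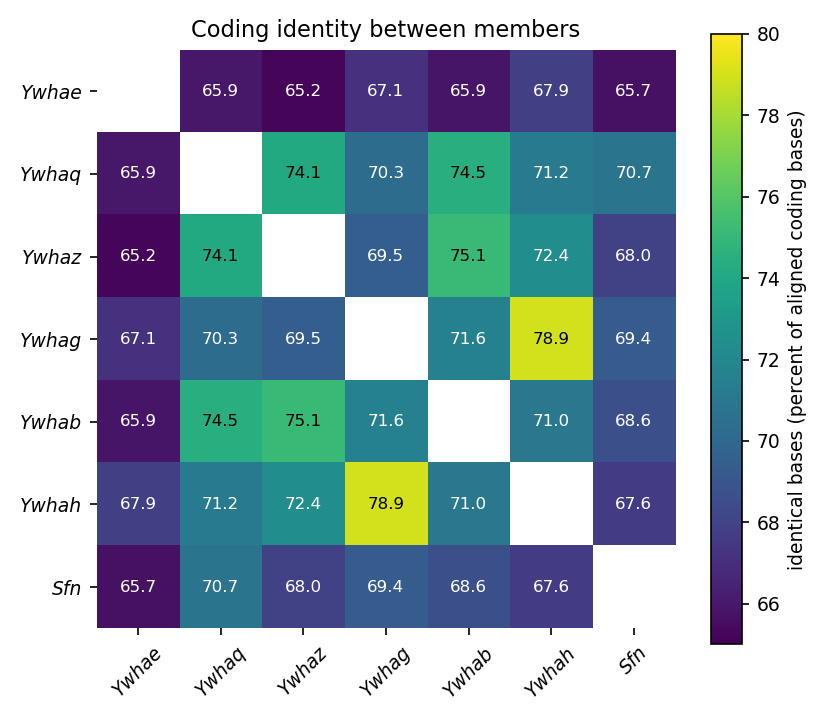
Percent of identical bases between the coding sequences of each pair of 14-3-3 genes, after global alignment (colour scale from 65 to 80 percent, diagonal left blank). Ywhag and Ywhah form the closest pair with 78.9%, and the row of Ywhae holds no value above 67.9%.

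The longest exact run shared by 2 coding sequences of the family was 30 bases, in Ywhag and Ywhah. No window of 100 bases in the principal transcript of a member occurred in a transcript of another member. The deposited posterior SD of the gene count was 0 in both libraries for Ywhab, Ywhae and Ywhag. It was 74.6 counts of 57269.9 in pup 1 and 105.85 of 84178 in pup 3 for Ywhaz, the highest of the family.

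Copies of the coding sequences elsewhere in the genome share longer stretches with the members. There were 14 pseudogenes with at least 85% identity over at least 300 aligned bases, of which 8 were copies of Ywhaq, 3 of Sfn, 2 of Ywhah and 1 of Ywhaz. Of the 14, 8 had a row in the gene tables and the rest were not analysed here. In windows of 100 bases, 26.3% of the Ywhaq transcript, 17.1% of Ywhaz, 6.91% of Ywhah and 4.03% of Sfn also occurred, on either strand, in a transcript of another gene. For Ywhab, Ywhae and Ywhag this share was 0%. The Ywhaq windows were those of ENSMUST00000135088, which is not its leading transcript. Besides pseudogenes, they were shared with the protein-coding Cdk5rap2 and with Gm4419, which overlaps Ywhaq on the opposite strand.

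The copy of Ywhaz, Gm4202 on chromosome 3 (92689426 to 92690158), was the closest to its parent, with 1 difference in 733 aligned columns. The place of that difference, in the first signature itself, shows how little parts their reads. The extra base of the copy is the capital.
Ywhaz (chr15:36790814-36790853, minus strand): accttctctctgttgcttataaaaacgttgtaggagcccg
Gm4202 (chr3:92689549-92689589, plus strand): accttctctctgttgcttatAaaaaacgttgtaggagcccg
The tables gave 956 counts in pup 1 and 2039.6 in pup 3 to Gm4202, which is 1.67% and 2.42% of the Ywhaz counts. Ywhaq-ps3 lies within Cdk5rap2 on chromosome 4 and had 278 counts in pup 1 and 139 in pup 3. It differed from Ywhaq at 3 of 738 aligned bases, and 1 of these is marked in the pair below. The Ywhaq stretch spans an intron.
Ywhaq (chr12:21396439-21398274, minus strand): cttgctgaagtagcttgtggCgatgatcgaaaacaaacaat
Ywhaq-ps3 (chr4:70248949-70248989, minus strand): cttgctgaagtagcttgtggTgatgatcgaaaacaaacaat
All pseudogene rows of Ywhaq held 0.798% and 0.541% of its counts in pup 1 and pup 3, and those of Ywhah 0.0492% and 0.0294%. Of the other copies, Gm2423 had 18.0 counts in pup 1 and 79.5 in pup 3, while Gm12428, a copy of Ywhah, had 2.36 and 2.39, and Ywhaq-ps2 and Gm7977 had 0 in pup 1 and 1.00 and 1.02 in pup 3. Gm14287, a short pseudogene that shares windows with Ywhaz, had 8.76 and 5.78 counts. Reads in these identical parts were divided by estimate, so the levels of Ywhaz and Ywhaq carry this uncertainty. On the opposite strand, 2 genes overlap members. Gm26836, a lincRNA gene inside Ywhae, had 240 counts in pup 1 and 0 in pup 3. Gm4419, at the start of Ywhaq, had 0 and 4. Without a statement on strand, reads in the windows that Gm4419 shares with Ywhaq cannot be told from those of Ywhaq. Gm26836 overlaps the span of Ywhae, but 0 windows of the principal Ywhae transcript occurred in a transcript of another gene. The deposited posterior SD of the Ywhae count was also 0 in both libraries. Overlaps shorter than a window were not checked.

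The libraries held 26037002 and 32408655 expected counts on mouse genes in pup 1 and pup 3, and 3 counts, taken as the ceiling for a gene with none, came to 0.115 and 0.0926 CPM (counts in each 1e6). Spike-in RNAs took 2.05% and 2.21% of all counts. The tissue label was checked on marker genes at a level of 1 TPM, a unit that divides counts by transcript length and is scaled to the same sum in every library. All 6 pan-neuronal genes were read in both pups, as were 4 of the 8 genes listed for midbrain. These were Th (46.9 and 38.5 TPM), Slc17a6 (179.7 and 97.9 TPM), Gad1 (136.9 and 95.3 TPM) and Pou4f1 (57.9 and 36.6 TPM). En1 lay under 1 TPM in both. The rest of the list went apart. Otx2 read 40.6 TPM in pup 1 and 0.40 in pup 3, Pax7 0.14 and 6.76, and En2 0.71 and 2.49. The list therefore bears out the midbrain label in part only. Markers of other cells were present too. Their summed levels in pup 1 and pup 3 were 2277 and 2630.1 TPM for radial glia and astrocytes, 1703 and 2860.3 for erythroid cells, 150.2 and 125 for endothelium, 129.6 and 175 for meningeal fibroblasts, 84.3 and 92.8 for the oligodendrocyte lineage and 73.7 and 106 for microglia. The radial glia sum was carried by Fabp7 (1385 and 2053 TPM), whereas Aldoc, Vim and Slc1a3 were higher in pup 1, and the median log2 ratio of these 4 markers was 0.39. Endothelial Cldn5 read 147 and 115 TPM but Flt1 2.83 and 10.35. In the oligodendrocyte lineage, Sox10 read 23.4 and 0 TPM but Olig2 1.18 and 15.4. Among fibroblast markers, Col1a1 read 26.2 and 3.49 TPM but Dcn 51.1 and 111. Of the microglial genes, Cx3cr1 read 3.13 and 0.04 TPM but C1qb 13.2 and 39.2. The sums of the lists other than the erythroid one therefore give no common direction of their members. All erythroid genes of the list were lower in pup 1, with a median log2 ratio of -0.88. In tissue RNA, fewer cells of a type and less RNA per cell cannot be told apart. Reads amplified from so little RNA are not independent molecules, so intervals and limits cover counting error only.

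Of the 7 members 6 were read, each in both pups, and they fell into an upper and a lower tier. Ywhae, Ywhaq and Ywhaz read at least 1115 TPM in both libraries and Ywhag, Ywhab and Ywhah at most 522 TPM, while Sfn had no count. The tiers were drawn from these same levels. Ratios between an upper and a lower gene ran from 2.13 to 11.6 per length over the 9 such pairs and both pups, a description that follows from how the tiers were drawn. Together the 7 genes made up 5622 TPM in pup 1 and 4242 TPM in pup 3, which is 0.562% and 0.424% of all TPM. The mean sum was 4932 ± 976 TPM (SD, n = 2 pups).

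Ywhae, the epsilon gene (ENSMUSG00000020849.9, GRCm38 chromosome 11, 75732869 to 75765845), averaged 1621 ± 617 TPM, per length more than any other member. Its level was 2058 TPM in pup 1 and 1184 TPM in pup 3, so that it led the family in pup 1 only. Among all mouse gene rows it ranked 41 in pup 1 and 88 in pup 3. Its protein is known to shield phosphorylated NDEL1, a partner of the dynein regulator LIS1, and mice without it have defects of neuronal migration.

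Ywhaq, the theta gene (ENSMUSG00000076432.8, chromosome 12, 21390071 to 21417637), read 1417 TPM in pup 1 and 1144 TPM in pup 3, a mean of 1281 ± 193. Its ranks among all rows were 67 and 94. Ywhaz, the zeta gene (ENSMUSG00000022285.12, chromosome 15, 36770770 to 36796929), read 1115 TPM in pup 1 and 1303 TPM in pup 3, a mean of 1209 ± 133. It stood below Ywhae and Ywhaq in pup 1 and above both in pup 3. The 3 upper genes thus changed places between the pups, and none of their mean log2 ratios to each other exceeded its SD.

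Ywhag, the gamma gene (ENSMUSG00000051391.8, chromosome 5, 135908409 to 135934616), had 522 TPM in pup 1 and 233 TPM in pup 3, a mean of 378 ± 205. In humans, variants of this gene cause an epileptic encephalopathy. Ywhab, the beta gene (ENSMUSG00000018326.5, chromosome 2, 163994960 to 164018588), had 333 and 163 TPM, a mean of 248 ± 120.2. Ywhah, the eta gene (ENSMUSG00000018965.10, chromosome 5, 33018816 to 33027966), had 177 and 215 TPM, a mean of 196 ± 26.6. Ywhag was above Ywhab in both pups, by 1.57-fold in pup 1 and 1.43-fold in pup 3, and their mean log2 ratio of 0.58 ± 0.10 exceeded its SD. The order of Ywhab and Ywhah turned round, since Ywhab was 1.88-fold higher in pup 1 but stood at 0.760 of Ywhah in pup 3.

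Of all 15 pairs of read members, 12 had the same order in both pups and 3 did not, namely Ywhae and Ywhaz, Ywhaq and Ywhaz, and Ywhab and Ywhah. In 5 pairs the mean log2 ratio lay within its SD over pups. Within each library the deposited intervals of neighbours in the order did not overlap. These intervals cover the reads of a library and not the difference between the 2 libraries, which was larger. With 1 library per pup, animal and library cannot be told apart in that difference. The intervals are placed around the posterior mean TPM, which was lower than the TPM given here, as in Ywhae with 1991 in pup 1 and 1157 in pup 3.

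**Figure D2:**
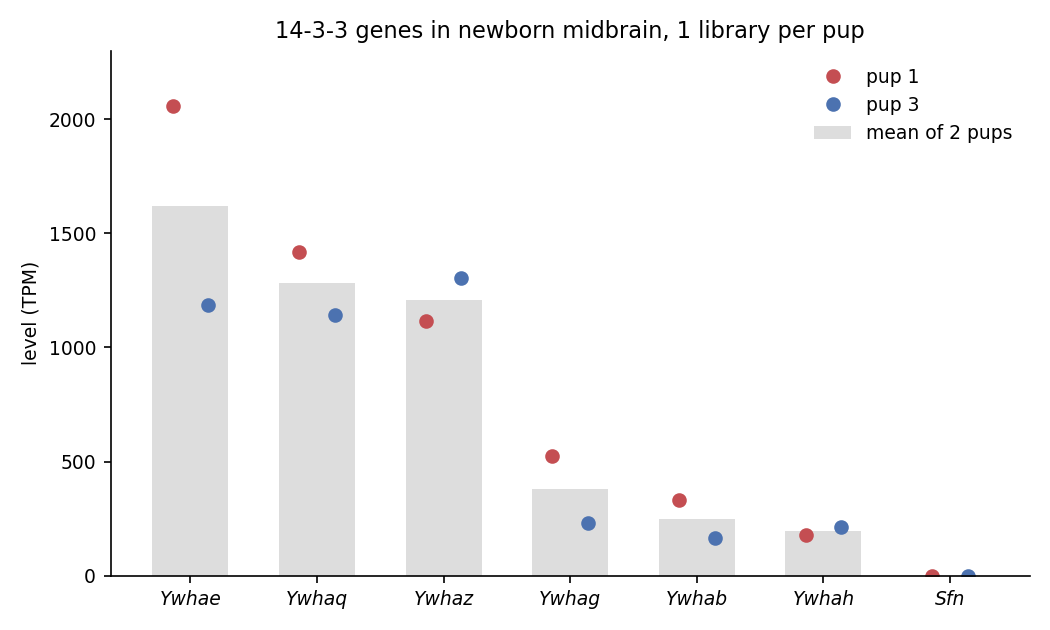
Level of each 14-3-3 gene in TPM (vertical axis, linear from 0) in pup 1 and pup 3, with grey bars for the mean of the 2 pups. Ywhae, Ywhaq and Ywhaz lie at 1115 TPM or more in both pups, Ywhag, Ywhab and Ywhah at 522 TPM or less, and Sfn at 0.

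Sfn, the sigma gene (ENSMUSG00000047281.3, chromosome 4, 133600556 to 133602168), had 0 counts in both libraries. By counting error alone, a count of 0 allows up to 0.122 TPM in pup 1 and 0.0870 TPM in pup 3. This limit does not bound the level in the tissue, since other genes read 0 in 1 pup only. Ndel1 had 83.2 TPM in pup 1 and 0 in pup 3, and Prkaa1 had 0 and 33.9. Against the limit of 3 counts, the lowest member that was read stood 1455-fold higher per length in pup 1 (Ywhah). In pup 3 the lowest (Ywhab) stood 1875-fold higher. The sigma protein belongs to epithelia, where it was found as stratifin. Of 7 epithelial marker genes none was read at 1 TPM in both pups. Krt8 had 1.01 TPM in pup 1 and 0 in pup 3, and the keratins Krt14 and Krt18, Epcam and Trp63 were at 0 in both.

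Shares of the family's summed TPM showed the make-up of the 14-3-3 RNA pool. Ywhae, Ywhaq and Ywhaz held 81.6% of it in pup 1 and 85.6% in pup 3, a mean of 83.6% ± 2.81 (SD, n = 2 pups). Ywhaq was the steadiest of them, with 25.2% in pup 1 and 27.0% in pup 3. Ywhae took 36.6% and 27.9%, and Ywhaz 19.8% and 30.7%. The share of Ywhae was thus 8.68 percentage points higher in pup 1, and for Ywhaz the difference of pup 1 minus pup 3 was -10.9 points.

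The lower tier held the rest. Ywhag had 9.29% of the pool in pup 1 and 5.49% in pup 3, Ywhab 5.92% and 3.84%, and Ywhah 3.15% and 5.06%. Shares are per length, and on counts, where long transcripts weigh more, the mean share of Ywhaz was 33.2%, that of Ywhae 28.4%, that of Ywhaq 18.3% and that of Ywhag 10.7%. The deposited mean transcript lengths in pup 1 were 3251 bases for Ywhaz and 1705 for Ywhaq, and on counts Ywhaz had a higher mean share than both Ywhae and Ywhaq.

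**Figure D3:**
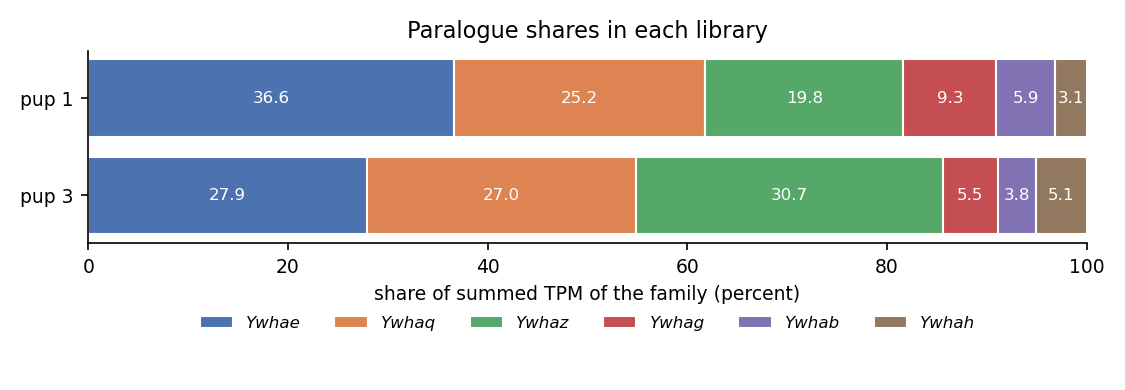
Share of the family's summed TPM (horizontal axis, percent) held by each 14-3-3 gene in pup 1 (upper bar) and pup 3 (lower bar), with the value printed in each segment. Ywhaq stays at 25.2% and 27.0%, Ywhae has 36.6% and 27.9%, and Ywhaz has 19.8% and 30.7%.

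The comparison of pups asks how steady each paralogue is between 2 midbrains at this input. Counts were scaled by the total on mouse genes, and a call required that the 95% interval of the count ratio (exact, Clopper-Pearson) lie beyond 2-fold at both ends. By this rule 0 of the 6 read members were called, against 62.0% of 12144 genes with 1 TPM in either library. Of the 1667 genes with a mean of 100 TPM or more, among which all 6 members lie, 24.2% were called, 7.98% as higher in pup 1 and 16.2% as higher in pup 3. No p-value was computed, since this compares 2 libraries.

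Ywhag had 27260 counts in pup 1 and 18032 in pup 3, a ratio of 1.88 (95% interval 1.85 to 1.92). Ywhab had 15818 and 10824 counts, a ratio of 1.82 (1.77 to 1.86), and Ywhae 66421 and 53836 counts, a ratio of 1.54 (1.52 to 1.55). These 3 genes were higher in pup 1. Ywhaq stood at 37078 and 40787 counts, a ratio of 1.13 (1.12 to 1.15). Ywhaz was lower in pup 1, with 57269.9 and 84178 counts and a ratio of 0.847 (0.838 to 0.856), as was Ywhah, with 4799.6 and 8122.6 counts and a ratio of 0.736 (0.710 to 0.762). The closest pair in sequence, Ywhag and Ywhah, therefore lay at the ends of the range of ratios. The median log2 ratio of pup 1 over pup 3 was 0.40 over the 6 members, -0.03 over all genes tested and -0.22 over genes with a mean of 100 TPM or more.

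The scaling decides whether Ywhag and Ywhab pass 2-fold. TMM scaling moved all log2 ratios up by 0.19 and DESeq2 size factors by 0.20, so that Ywhag came to 2.15 and 2.16 and Ywhab to 2.08 and 2.09, and both were called. In TPM their ratios were 2.24 and 2.04, beside 65.8% of all genes tested and 26.8% of those with a mean of 100 TPM or more past 2-fold on that measure. With TMM, 23.3% of the genes with a mean of 100 TPM or more were called, 11.6% in each direction. With spike-ins as the scale, log2 ratios moved up by 0.11, Ywhag came to 2.03 and Ywhab to 1.96, and 0 members were called. All 6 members kept their direction under each of these measures. Ywhaz, however, came close to equality between the pups, at 0.966 with TMM and 0.973 with DESeq2 size factors. Pan-neuronal markers summed to 8822 TPM in pup 1 and 5321 TPM in pup 3, with Tubb3 at 5927 and 1794 TPM, while Stmn2 (2056 and 2565) and Snap25 (366 and 552) were lower in pup 1. These genes were picked out after their values were seen. Their part in the ratios was not tested.

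**Figure D4:**
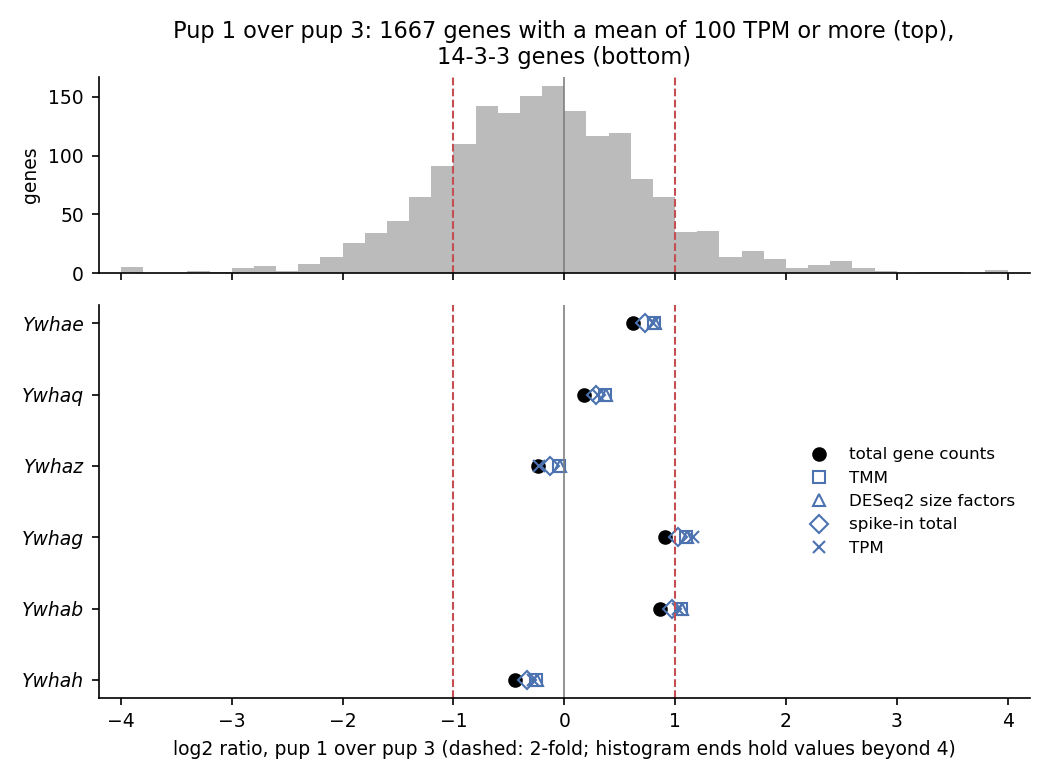
Log2 ratio of pup 1 over pup 3 for 1667 genes with a mean of 100 TPM or more (top, number of genes per bin) and for the 6 read 14-3-3 genes (bottom) under 5 measures or scalings, with dashed lines at 2-fold. Ywhag and Ywhab lie next to the upper line, at ratios of 1.88 and 1.82 by total counts, and Ywhaz and Ywhah left of 0.

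Transcript use was simple in most members, as judged by the deposited percent of a gene's TPM on each transcript. Each of the 6 read genes had at least 2 annotated transcripts and 50 counts per library, and all 6 kept the same leading transcript in both pups. Among all 5311 genes that met these limits the share was 62.8%, and among the 1247 with a mean of 100 TPM or more it was 82.0%. The share of the leading transcript differed between pups by a median of 2.45 percentage points in the 6 members, 19.3 points in all genes and 8.42 points in the genes of at least 100 TPM.

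Ywhab used ENSMUST00000018470.5 for 100% of its abundance in both pups. Ywhah used ENSMUST00000019109.7 for 100% in pup 1 and 99.8% in pup 3, and Ywhae used ENSMUST00000067664.5 for 98.6% and 99.6%. Each of these encodes the full protein. Ywhag placed 91.7% in pup 1 and 99.3% in pup 3 on ENSMUST00000055808.5. The rest in pup 1 lay on 3 noncoding transcripts from the start of the gene, with 3.82% on ENSMUST00000126192.1, 2.80% on ENSMUST00000126639.1 and 1.65% on the retained intron ENSMUST00000129581.1.

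Ywhaz was the member whose transcripts differed most between the pups. ENSMUST00000022894.9 (Ywhaz-201) held 97.4% in pup 1 and 70.5% in pup 3. ENSMUST00000110362.3 (Ywhaz-204) held 0.25% and 28.3%. In counts this second form had 92.0 in pup 1, with a deposited posterior SD of 71.4, and 16956 in pup 3, with an SD of 387. Both forms have the same coding sequence of 738 bases. They differ in their ends: Ywhaz-201 begins at 36794538 on the minus strand and ends at 36770770, with 1948 bases of 3′ UTR, and Ywhaz-204 begins at 36793837 and ends at 36771704, with 1014 bases. The expected counts placed 98.6% and 79.2% on Ywhaz-201, so the first form led by this measure too.

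Ywhaq was split in both pups. ENSMUST00000049531.9, of length 1515, held 72.1% in pup 1 and 76.0% in pup 3, and ENSMUST00000135088.3, of length 2197, held 27.9% and 16.5%. ENSMUST00000155480.3 had 0% in pup 1 and 5.77% in pup 3. The leading Ywhaq transcript has no record in GENCODE M21, while the other 27 transcripts of the family have one of the same length.

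**Figure D5:**
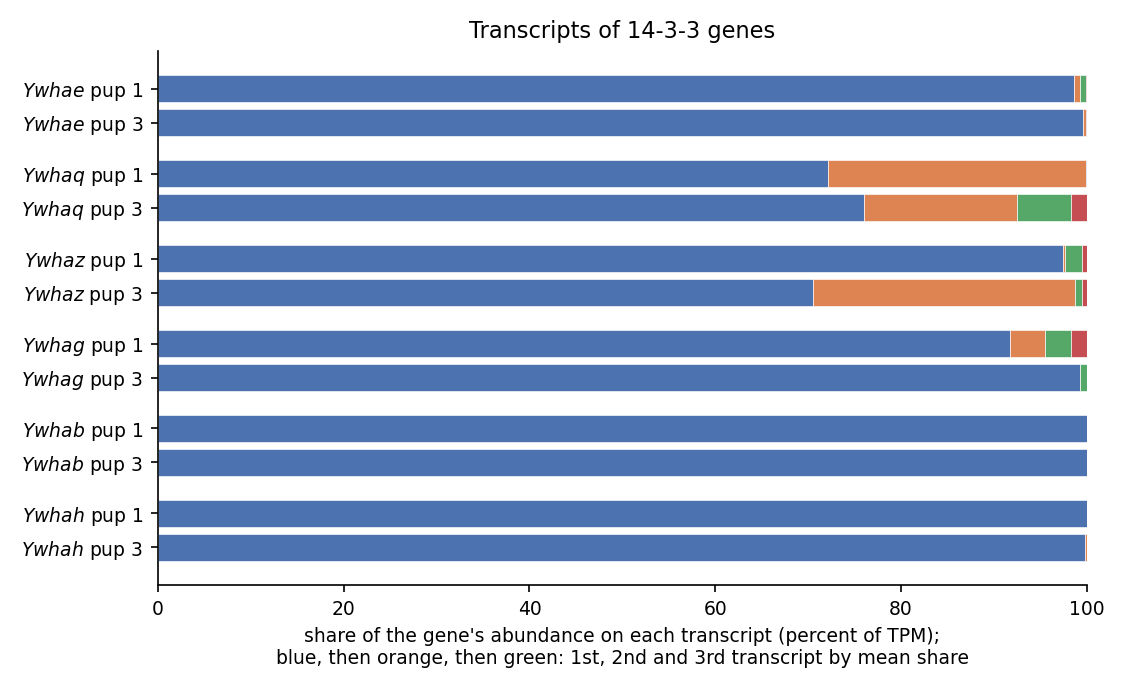
Share of each gene's abundance on its transcripts (horizontal axis, percent of TPM) for the 6 read 14-3-3 genes, with pup 1 above pup 3; colours run from the transcript with the highest mean share (blue) to the lower ones (orange, green, red). Ywhaz has 0.25% of its second transcript in pup 1 and 28.3% in pup 3, while Ywhab and Ywhah show 1 transcript only to within 0.22%.

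The proteins that 14-3-3 binds, and the kinases that make its binding sites, were taken from 4 lists of 69 genes in all. At 1 TPM, 38 of them were detected in both pups, 14 were detected in pup 1 alone, 6 in pup 3 alone, and 11 were not detected. Of all genes detected in either library, 60.8% were detected in both, a share that leaves out genes detected in neither, such as these 11. All of the listed genes lay below the upper tier of the 14-3-3 genes.

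Among 22 neuronal and cytoskeletal clients, 16 were detected in both pups. Mapt, the microtubule protein tau, led this list with 866 TPM in pup 1 and 930.4 TPM in pup 3. The kinesin light chain gene Klc1 had 357 and 443 TPM. Th encodes tyrosine hydroxylase of dopamine neurons, a client behind the name of the Ywha genes. Its ratio of pup 1 over pup 3 was 1.08 (95% interval 1.01 to 1.17). Lrrk2, a kinase gene of Parkinson disease whose product binds 14-3-3, had 0 counts in both. Of 19 tested genes, 5 were called as higher in pup 1 and 2 as higher in pup 3, against 32.2% and 29.8% of all genes tested, and the median log2 ratio was 0.12.

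Of 13 signalling clients, 6 were detected in both pups. Araf led them with 456 TPM in pup 1 and 512 in pup 3. Tsc2, a brake on mTOR signalling, had 66.9 and 46.5. Of 11 tested genes, 2 were called as higher in pup 1 and 4 as higher in pup 3, near the 32.2% and 29.8% of all genes. The median log2 ratio was -0.52.

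Of 17 nuclear and cell cycle clients, 7 were detected in both pups and 7 in pup 1 only. Trp53 had 171 TPM in pup 1 and 67.8 in pup 3, Crtc1, a coactivator of CREB, 64.7 and 36.3, and the deacetylase gene Hdac4 35.9 and 40.5. Of 14 tested genes, 8 were called as higher in pup 1 and 0 as higher in pup 3, against 32.2% and 29.8% of all genes tested. The median log2 ratio was 3.49, and in 5 of the 8 the lower library had 1 count or none.

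Of 17 kinases that write 14-3-3 sites, 9 were detected in both pups. Prkacb, a catalytic subunit of protein kinase A, had 264 TPM in pup 1 and 162 in pup 3. The cytoskeletal kinase Pak1 had 139 and 73.1, and the polarity kinase Mark2 64.4 and 21.5. Of 14 tested genes, 3 were called as higher in pup 1 and 4 as higher in pup 3, where all genes gave 32.2% and 29.8%, with a median log2 ratio of 0.77.

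Ywhae lies in the region that human Miller-Dieker syndrome deletes together with PAFAH1B1, the LIS1 gene. In the mouse annotation all 12 listed genes of that region lie on chromosome 11 with Ywhae, Crk at a distance of 26.0 kb and Pafah1b1 at 1008 kb. Of the 12, 8 were detected in both pups. Vps53 had 61.0 TPM in pup 1 and 61.7 in pup 3, Abr 40.5 and 74.2, and Inpp5k 98.1 and 5.12. Pafah1b1 had 30.0 and 29.3 TPM and a ratio of 0.921 (0.876 to 0.967). Crk, an adaptor next to Ywhae, had 5.50 and 26.6 TPM. Of 10 tested genes, 4 were called as higher in pup 1 and 3 as higher in pup 3, near the 62.0% of all genes called in either direction. Levels of Ywhae thus stood far above those of its listed neighbours in both libraries.

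Of the partners of epsilon and LIS1, Ndel1 and Nde1 had counts in pup 1 alone, in libraries where 60.8% of the genes detected in either were detected in both. Ndel1 had 3095 counts in pup 1 and 0 in pup 3, and the near end of the exact interval was 1044-fold. Nde1 had 642 and 0 counts, with a near end of 216-fold. Both ends cover counting error only and, with amplified reads, are not minimum differences in expression between the pups. Disc1 was at 0 in both. The protein-coding genes closest to Ywhae in level over the 2 libraries were Rps19 (2209 TPM in pup 1 and 1147 in pup 3), a ribosomal protein, Oaz1 (2039.9 and 1318), a regulator of polyamine synthesis, and Dpysl2 (2358 and 1124), a protein of growing axons. Their distances in log2(TPM + 1) were 0.113, 0.155 and 0.210. With 2 libraries this closeness is one of level.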

How the data were processed

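RNA of 2 midbrains was amplified by a SMART-type protocol with spike-ins, per the labels' protocols. Per the deposited records, the authors used mm10 and annotation M4 and made a gene and a transcript table per library. The sources used here name no aligner, no quantifier and no strand setting. The deposited expected counts divide ambiguous reads and were rounded for intervals. The deposited TPM and FPKM values are per length. The deposited percent gives each transcript's share of its gene.

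Symbols were matched by gene identifier without version; all 7 members and all list genes matched. Coordinates and sequences are from GENCODE M21 (GRCm38), and copies were found with blast 2.17.0. Intervals are exact at 95%. The interval calculation was tested on simulated counts that held counting error only, unlike these amplified libraries. That test therefore does not check the calls made here.

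Named genes were all members, pseudogenes with counts, transcripts of at least 10% (3 of Ywhag, 1 of Ywhaq and some markers were named after their values were seen), the 3 highest genes per list with Pafah1b1, Crk, Th and Lrrk2, and the 3 genes nearest Ywhae; some genes of the lists are not reported here. Members and lists were chosen with earlier results of these data known. Python 3.11.15, scipy 1.17.1, pandas 2.3.3, biopython 1.88, R 4.3.3, edgeR 4.0.16 and DESeq2 1.42.0 (scaling factors only) were used.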

Additional observations from a re-analysis of the deposited data

How the results depend on the processing

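The joint share of Ywhae, Ywhaq and Ywhaz (83.6%) stayed within its SD over pups with posterior mean TPM or pseudogene rows added. FPKM could not change this share, being proportional to TPM within a library. The share also stayed within its SD with protein-coding transcripts only. There the leading Ywhaq transcript was kept by assumption, having no record in GENCODE M21. Without that transcript the share was not computed. On expected counts, which are not divided by length, the joint share came to 80.0%. In single pups it ranged from 81.6% to 85.6%. The family's share of all TPM stayed within its SD with posterior mean TPM and with TPM rescaled without spike-in, tRNA and mitochondrial rows. FPKM again could not change it. In single pups the family's share ranged from 0.424% to 0.562%. By interval, 2 members, Ywhag and Ywhab, were called past 2-fold with TMM scaling and 2 with DESeq2 size factors (61.7% of all genes in each). With spike-in scaling 0 were called (61.6%), and the point ratio of Ywhag was 2.03. A 4-fold limit (46.5%), no filter (55.3%) and a filter at 10 TPM (58.6%) also left 0 called. For these last settings the outcome was fixed in advance, since 0 members were called at 2-fold and all 6 lie above 10 TPM. By the TPM ratio, which has no interval, Ywhag and Ywhab were past 2-fold (65.8% of all genes). All 6 leading transcripts stayed the same in both pups under 5 alternatives. Of these, minima of 10 and 200 counts could not change the outcome, as every read member had more counts. The protein-coding alternative again kept the leading Ywhaq transcript by assumption. Of 69 client and kinase genes, those detected in both pups numbered 25 at 10 TPM, a stricter limit, against 38 at 1 TPM, 42 at 0.1 TPM and 41 at 10 counts; single pups held 44 to 52. No paired analysis was possible because both libraries belong to 1 group.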
